A study of Mus musculus with 6 samples.

Results

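The genes described here are 10 that encode enzymes consuming or making nicotinamide adenine dinucleotide (NAD): the NAD glycohydrolases Cd38 and Bst1, the synthesis enzymes Nampt and Nmnat1, the poly(ADP-ribose) polymerase Parp1, and the sirtuins Sirt1, Sirt2, Sirt3, Sirt6 and Sirt7. They were taken by name from a deposited table of 19973 genes, matched through their Ensembl identifiers, and all 10 were found. Their RNA was measured in peritoneal macrophages of male C57BL/6 mice, a common inbred strain, aged 18 months (old) or 2 months (young). Both ages had received zymosan A, a yeast cell wall preparation that sets off a self-limiting peritonitis, at 200 µg per mouse into the peritoneal cavity. Lavage followed after 72 hours, the cells were cultured overnight with L-cell medium, cells that had not attached were washed away, and all libraries used here come from cells then held for 6 hours in vehicle, which was phosphate-buffered saline. Old and young cells gave 3 libraries each; cells given RvD2 are not analysed here. The labels mention both 3 mice per group and triplicate sequencing, without saying whether a library stands for a mouse or a run, so the spread behind every p-value below may be technical. Where 3 values of one age are given, they stand in the order of replicates 1, 2 and 3.

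NAD is a coenzyme of redox reactions, and several enzyme families split it and release nicotinamide. CD38 and its relative CD157, the product of Bst1, are surface enzymes that cleave NAD or turn it into the calcium messenger cyclic ADP-ribose; the poly(ADP-ribose) polymerases attach its ADP-ribose part to proteins at damaged DNA and elsewhere, and the sirtuins spend it to remove acetyl and other acyl groups from proteins. NAMPT and the NMNAT enzymes rebuild NAD from the nicotinamide that these reactions release, and in macrophages CD38 is known as an enzyme induced by inflammatory signals.

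Of the 10 genes, 2 were higher in old libraries (Bst1 and Sirt1), 1 was lower (Cd38) and 7 did not pass the test. Bst1 was 2.23-fold and Sirt1 1.22-fold higher in old, and Cd38 was 1.35-fold higher in young. The test was limma on log2(normalized count + 1), where a normalized count is the reads of a gene divided by the size factor of its library, with Benjamini-Hochberg adjustment across the 11795 genes with a mean of at least 10; all 10 genes passed that filter. By the same rule 35.5% of all tested genes were called, 17.9% higher and 17.6% lower in old, so 3 of 10 is a share near that of the whole table. The values of old and young libraries did not overlap for 4 of the 10 (Cd38, Bst1, Sirt1 and Sirt3), of which 2 were higher and 2 lower in old; among all tested genes it was 47.5%, 24% higher and 23.6% lower. The median log2 difference of the 10 was 0.12 and that of all tested genes was 0.00. In bulk libraries, fewer cells of a type and less RNA per cell cannot be told apart.

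Library totals ran from 8163016 to 13007604 reads. On the first principal component the ages were apart (71.5% of the variance), whereas on the second (18.2%) the libraries numbered 3 of either age lay farthest apart, and the fit was therefore also run without both of them, an alternative chosen after seeing the data. All 8 macrophage markers were tested, 5 passed as higher and 1 as lower in old, and their sum, most of it from the lysozyme gene Lyz2, lay between 343303 and 428202 normalized counts in old and between 277707 and 353846 in young libraries. Cd68, a lysosomal protein gene, was 1.69-fold higher in old, and C1qa, a complement subunit gene, 2.49-fold higher in young (adjusted p from limma 0.00071 and 3.47e-05). Several lists of other cells also differed. The 9 B cell genes, all 9 of which passed as higher in old, summed to 1411 to 2999 in old and 51.8 to 60.4 in young libraries, with the complement receptor gene Cr2 at 0 in every young library. Mast cell genes (5 of 5 tested higher) summed to 534 to 605 against 38.2 to 62.5. Of the 8 listed neutrophil genes, 3 were in the table and 2 were tested, S100a8 and Csf3r, both higher in old. The neutrophil sums, 994 to 1102 against 488 to 496, came almost wholly from these 2. Cxcr2 had 0, 1 and 1 reads in old and 0 in every young library. S100a9, Ly6g, Retnlg, Mpo and Elane were not in the table. The T and NK cell genes, of which none passed the filter, summed to 38.1 to 68.4 against 4.23 to 9.05. Trac had 8, 14 and 3 reads in old and 0 in every young library. Ncr1, also at 0 in the young libraries, had only 1, 1 and 0 reads in old. Eosinophil sums (2 of 4 listed genes in the table) were 25.4 to 35.9 against 3.38 to 9.65. This difference came from Il5ra alone, with 24, 34 and 17 reads in old and 2, 3 and 0 in young libraries. Siglecf had 3, 8 and 3 reads in old against 3, 8 and 4 in young libraries. Dendritic cell sums overlapped (12.7 to 20.5 against 9.30 to 13.2), as did those of mesothelial and fibroblast genes (385 to 467 against 359 to 442), in which Col3a1 and Pdgfra were higher in old (1.82-fold and 2.33-fold) and Col1a1 was 1.59-fold higher in young. Cycling cell genes fell in old for 5 of 5 genes, with sums of 3288 to 3401 against 20676 to 23431.

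**Figure D1:**
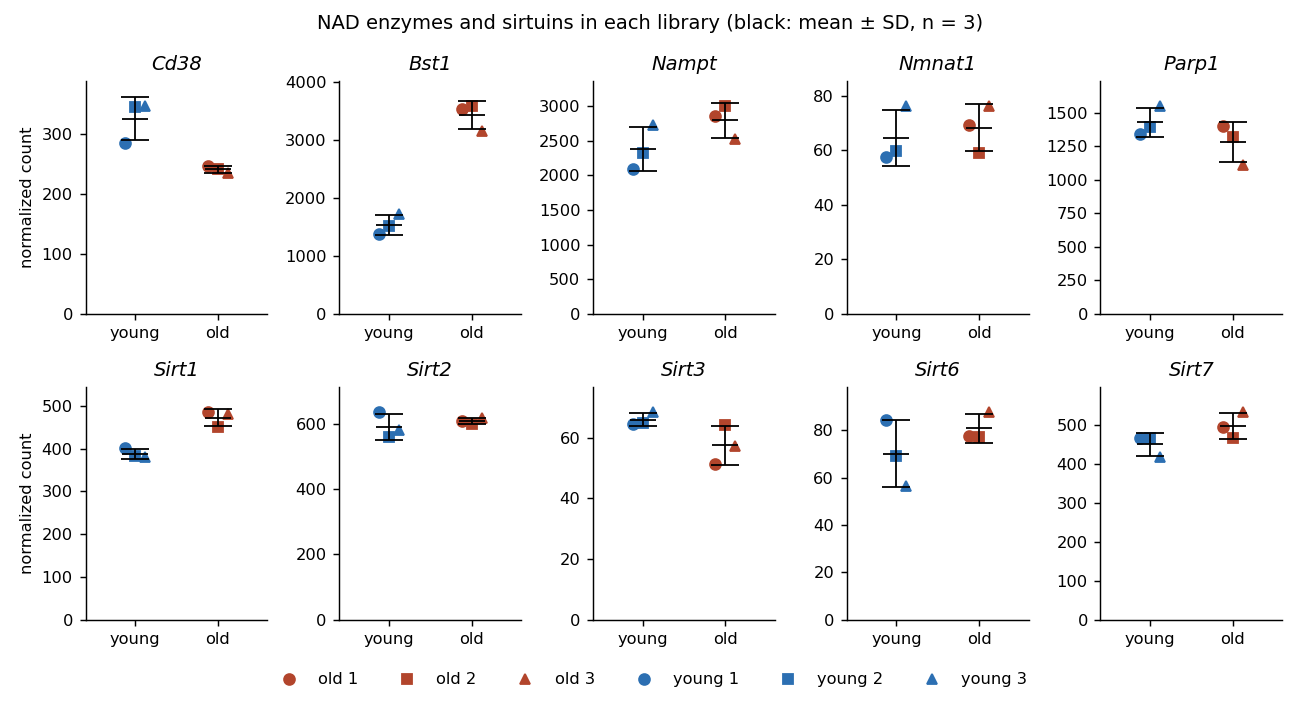
Normalized counts (linear axes from 0) of the 10 genes in each library, with young on the left and old on the right; symbols give the replicate number, and black marks the mean ± SD of 3 libraries. Cd38 lay between 235 and 247 in old and between 285 and 347 in young libraries, Bst1 between 3149.8 and 3579.8 against 1372 and 1713, and the ages overlapped for Nampt, Nmnat1, Parp1, Sirt2, Sirt6 and Sirt7.

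Cd38 and Bst1 are neighbours and paralogs on chromosome 5 (build GRCm38, the assembly that mm10 names; GENCODE release M21). Bst1 (ENSMUSG00000029082) spans 43818885 to 43843986 and Cd38 (ENSMUSG00000029084) 43868553 to 43912375, both on the plus strand and 24566 bases apart. The coding stretches of 90 bases in which the paralogs are most alike are shown because these neighbouring relatives differed in opposite directions; capitals mark bases that are identical in both, 55 of 90 (61.1%). They cover coding bases 157 to 246 of Cd38 and 85 to 174 of Bst1, and each crosses from the first to the second exon (of 8 in the Cd38 transcript and 9 in the Bst1 transcript), from 43869032 to 43900333 in Cd38 and from 43819011 to 43820484 in Bst1.
Cd38: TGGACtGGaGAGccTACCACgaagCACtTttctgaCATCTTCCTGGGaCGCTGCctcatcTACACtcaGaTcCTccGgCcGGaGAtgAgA
Bst1: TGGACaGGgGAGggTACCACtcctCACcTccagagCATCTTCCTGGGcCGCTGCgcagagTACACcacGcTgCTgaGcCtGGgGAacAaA
Over the whole transcripts the longest run of bases shared by both was 19 bases, and within the coding parts it was 12.

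Cd38 had 247, 242 and 235 normalized counts in old and 285, 346 and 347 in young libraries. All 3 old libraries lay below all 3 young ones, and the young libraries were the more scattered, with replicate 1 the lowest. The means were 241 ± 6.22 and 326 ± 35.7 (SD, n = 3 each), a log2 difference of -0.43 ± 0.10 (SE; limma adjusted p = 0.00866). Under each of the 18 alternatives the difference stayed negative and past the threshold (log2 difference from -0.52 to -0.36, adjusted p from 0.00412 to 0.0482). It was -0.36 without both libraries numbered 3.

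Bst1 had 3534, 3579.8 and 3149.8 normalized counts in old and 1372, 1507 and 1713 in young libraries. The lowest old library was well above the highest young one, and the libraries numbered 3 were the nearest to each other. The means were 3421 ± 236 and 1531 ± 172 (SD, n = 3 each), with a log2 difference of 1.16 ± 0.09 (SE; limma adjusted p = 1.28e-05). It was past the threshold under all 18 alternatives and came to 1.31 without both libraries numbered 3. Bst1 shares 98 exonic bases (2.95% of its exons) with Fbxl5 on the other strand, and whether reads were counted by strand is not given in the sources used here. Fbxl5 itself had mean normalized counts of 1603 in old and 1649 in young, with a log2 difference of -0.04 (limma adjusted p = 0.689).

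Per kilobase of exon, the level of Bst1 exceeded that of Cd38 by a factor of 16.8, 17.4 and 15.7 in old and by 5.65, 5.11 and 5.78 in young libraries. The lowest old ratio was above the highest young ratio, and the log2 ratio differed by 1.59. The 2-sided exact permutation p was 0.1, the smallest that 3 against 3 libraries can give. Adjusted over the 4 ratios computed, which were chosen after the values were seen, it was 0.133. Every old library had more Bst1 and less Cd38 than every young one, so this ratio had to separate. Its permutation p therefore adds nothing to the results of the single genes. The ratio of Nampt to Cd38 was 8.26 to 9.57 in old and 5.18 to 6.05 in young libraries (exact permutation p = 0.1, adjusted 0.133). That of Nampt to Bst1 was 0.53 to 0.55 against 1.00 to 1.05 (exact permutation p = 0.1, adjusted 0.133). Each contains a gene that already separated the ages, so neither is independent of the single genes. Nampt to Nmnat1 overlapped, with 19.9 to 30.6 in old and 21.6 to 23.4 in young libraries (exact permutation p = 0.6, adjusted 0.6).

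B cells also carry CD38, and their genes differed between old libraries. Old replicate 3 had a B cell sum of 1411, against 2655 and 2999 in old replicates 1 and 2, while its Cd38 value was 235 against 247 and 242 and its Bst1 value 3149.8 against 3534 and 3579.8. The part that B cells, mast cells, neutrophils or the difference in cycling cells have in the values of Cd38, Bst1 and the other NAD genes was not tested.

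**Figure D2:**
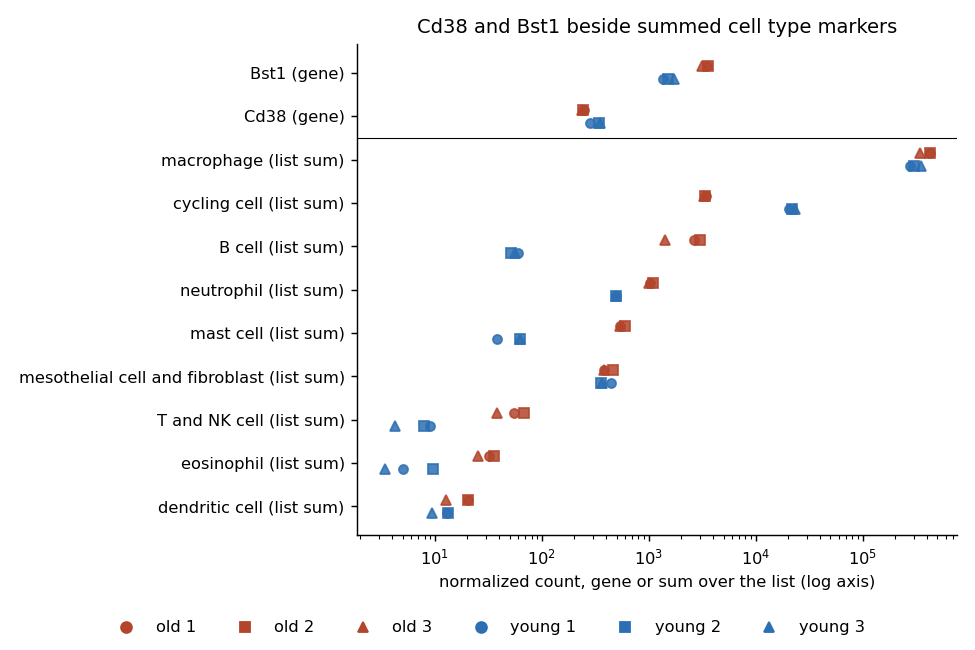
Normalized counts of Bst1 and Cd38 (above the line) and summed normalized counts of 9 marker lists (below it) on a log axis, with old libraries in red, young in blue and the symbol giving the replicate number. B cell sums lay between 1411 and 2999 in old and between 51.8 and 60.4 in young libraries, cycling cell sums between 3288 and 3401 against 20676 and 23431, and Cd38 was lower in all 3 old libraries.

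Only 1 further NAD glycohydrolase gene was listed, Sarm1, whose product cleaves NAD in neurons. It had 2, 1 and 1 reads in the old and 0, 0 and 2 in the young libraries, too few for the test.

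The synthesis genes among the 10 did not pass. Nampt, the rate-limiting enzyme of the salvage route from nicotinamide (ENSMUSG00000020572, chromosome 12, 32819545 to 32853349), had 2866, 3006 and 2521 normalized counts in old and 2089, 2328 and 2728 in young libraries. Old replicate 3 lay below young replicate 3, so the ages overlapped. The log2 difference was 0.24 (95% interval 0.00 to 0.48; limma adjusted p = 0.113). This value depended on the libraries numbered 3. Nampt was past the threshold without old replicate 3 (0.31, adjusted p = 0.0173), without young replicate 3 (0.34, adjusted p = 0.0253) and without both (0.41, adjusted p = 2.61e-06), as it was with each library centred on its median (0.29, adjusted p = 0.0381). Over the 18 alternatives its adjusted p ran from 2.61e-06 to 0.354.

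Nmnat1, the nuclear enzyme that joins nicotinamide mononucleotide to AMP to give NAD (ENSMUSG00000028992, chromosome 4, 149467572 to 149485202), had 69.3, 59.0 and 76.2 normalized counts in old and 57.3, 59.7 and 76.1 in young libraries. The ranges almost coincided. Its log2 difference was 0.09, with a 95% interval from -0.30 to 0.47 (limma adjusted p = 0.728).

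Among the 14 genes listed for NAD salvage, synthesis and transport, 10 were tested, of which 1 was higher in old, 1 was lower and 8 did not pass (median 0.14; 20% called, against 35.5% of all genes). The higher one was Nadk, the cytosolic kinase that turns NAD into NADP, with 2880.5 to 3083 normalized counts in old and 2310.5 to 2529 in young libraries, 1.25-fold (log2 difference 0.32, limma adjusted p = 0.00473). The lower one was Slc25a51, the carrier that brings NAD into mitochondria. It had 668, 646 and 643 normalized counts in old and 847, 864 and 879 in young libraries, a log2 difference of -0.40 ± 0.06 (SE; limma adjusted p = 0.000949). Both ages were tight for this gene and lay far apart compared with their spread.

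Of 8 genes listed for the kynurenine route from tryptophan to NAD, 4 were in the table and 1 was tested, the other 3 lying below the filter. That gene was Afmid, the formamidase of the route, with 5.98 to 11.4 normalized counts in old and 9.30 to 16.7 in young libraries and no call (log2 difference -0.66, limma adjusted p = 0.277). It passed without both libraries numbered 3 (-1.12, adjusted p = 0.0370; range over 14 alternatives from 0.0370 to 0.499), and it shares 44.25% of its exonic bases with the same-strand gene Gm20708, so its value is uncertain. Kynu, the kynureninase gene, had 12, 11 and 2 reads in old and 1 read in each young library. Kmo, the kynurenine monooxygenase gene, named after its values were seen, had 6, 11 and 6 reads in old and 1, 2 and 0 in young libraries. Both were below the filter, and with no filter on low values both passed as higher in old. Aox1, an aldehyde oxidase that oxidises nicotinamide products, had 15.5, 22.2 and 25.4 normalized counts in old and 12.1, 6.14 and 9.30 in young libraries (log2 difference 1.13, limma adjusted p = 0.0420). This call was lost without old replicate 1, 2 or 3 and without young replicate 2 or 3 (adjusted p from 0.0551 to 0.136), and over 17 alternatives its adjusted p ran from 0.0246 to 0.136. Nnmt, which methylates nicotinamide, did not pass (19.4 to 25.1 normalized counts in young and 25.1 to 43.2 in old libraries; limma adjusted p = 0.119). It passed under quantile normalization (0.71, adjusted p = 0.0489; range over 17 alternatives from 0.0489 to 0.365).

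**Figure D3:**
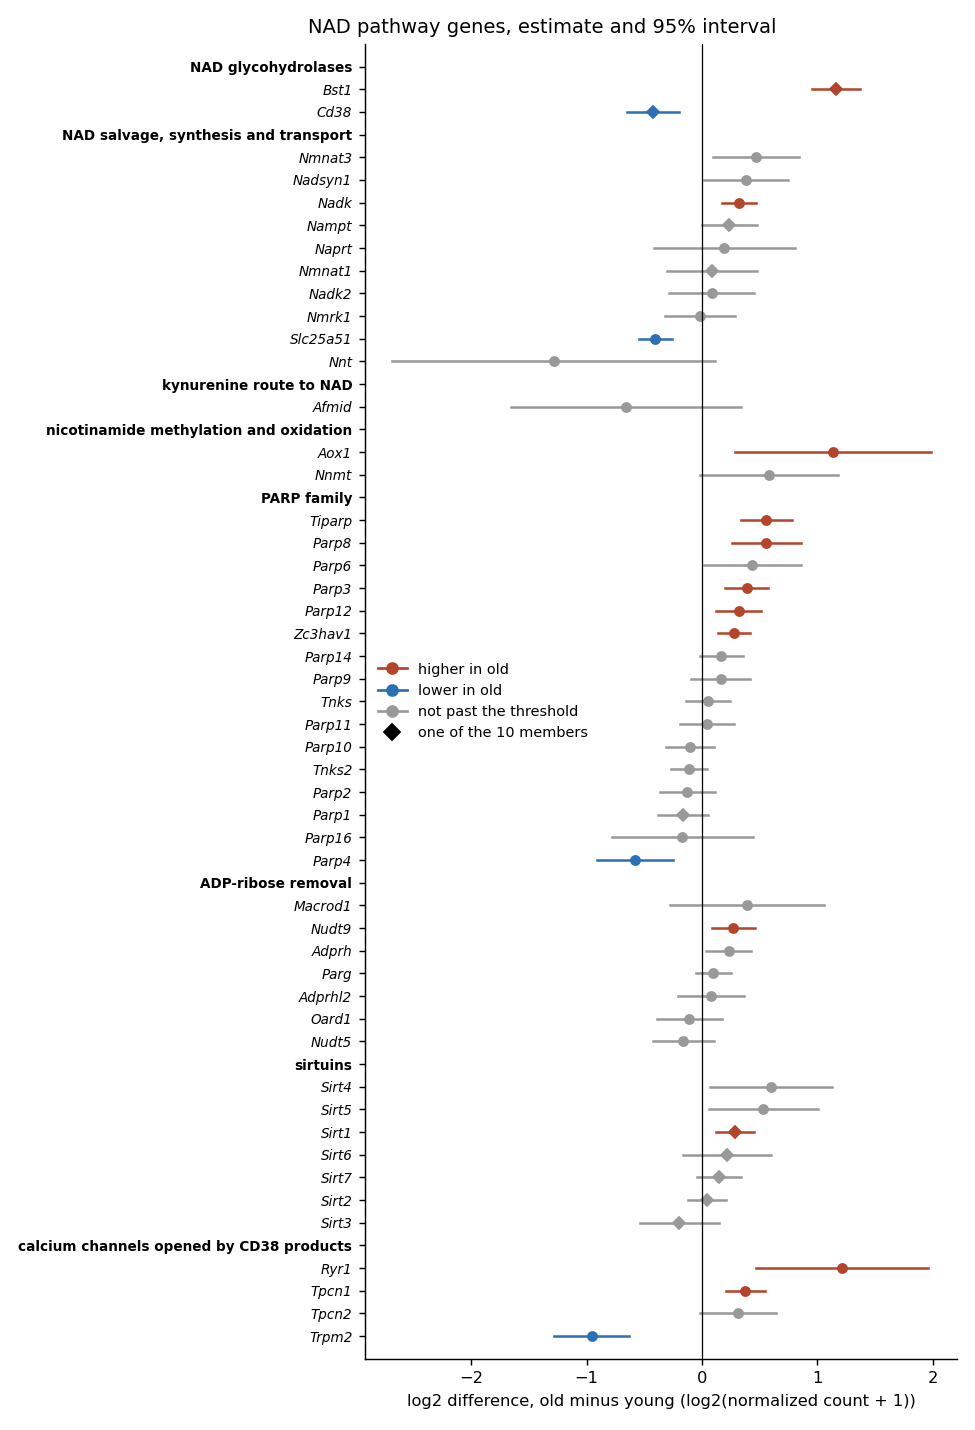
Log2 difference (old minus young, on log2(normalized count + 1)) with its 95% interval for the 49 tested genes of the NAD pathway lists, grouped by list and ordered within it; red passed as higher in old, blue as lower, grey did not pass, and diamonds are the 10 genes chosen by name. Bst1 (1.16) and Cd38 (-0.43) stand on opposite sides of 0, and 12 genes are red and 4 blue. Among all tested genes 17.9% were called higher and 17.6% lower in old.

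Parp1, which makes most of the poly(ADP-ribose) formed at DNA breaks (ENSMUSG00000026496, chromosome 1, 180568924 to 180601254), had 1403, 1321 and 1111 normalized counts in old and 1343, 1393 and 1549.8 in young libraries. Old replicate 1 lay above 2 of the young libraries. The log2 difference was -0.16 (95% interval -0.38 to 0.05; limma adjusted p = 0.219), and it was -0.01 without both libraries numbered 3.

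Of the 16 genes of the poly(ADP-ribose) polymerase family, all tested, 5 were higher in old, 1 was lower and 10 did not pass (median 0.11; 37.5% called, against 35.5% of all genes). Tiparp, a mono-ADP-ribosylating member induced by the aryl hydrocarbon receptor, had 1039.7, 1076 and 958 normalized counts in old and 611, 703 and 781 in young libraries, 1.47-fold (log2 difference 0.56, limma adjusted p = 0.00173). Its lowest old library was above its highest young one. Parp8 was 1.48-fold, Parp3, which acts in DNA break repair, 1.31-fold and Zc3hav1, the zinc finger antiviral protein, 1.21-fold higher in old (limma adjusted p = 0.00921, 0.00549 and 0.00652).

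The remaining genes of the family that passed, named after their values were seen, were Parp12 and Parp4. Parp12, an interferon-induced member, was 1.25-fold higher in old (log2 difference 0.32, limma adjusted p = 0.0189). Without old replicate 1, old replicate 2 or young replicate 2 its call was lost (0.0506 to 0.0921; range over 18 alternatives from 5.76e-05 to 0.0921). Parp4, the polymerase of the vault particle, was the lower one, with 378, 365 and 551 normalized counts in old and 636, 675 and 591 in young libraries (log2 difference -0.58, limma adjusted p = 0.0130). Old replicate 3 lay close to the young libraries, and the call was lost without old replicate 1, old replicate 2 or young replicate 2 (adjusted p from 0.0525 to 0.0620, with a range over 18 alternatives from 5.20e-09 to 0.0620).

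Of 8 genes listed for removing or breaking down ADP-ribose, 7 were tested, 1 was higher in old, 0 were lower and 6 did not pass (median 0.10; 14.3% called, against 35.5% of all genes). Nudt9, an ADP-ribose pyrophosphatase, was 1.21-fold higher (log2 difference 0.27, limma adjusted p = 0.0314). The call was lost without old replicate 1 or 2 and without young replicate 1 or 2 (adjusted p from 0.0783 to 0.134; range over 18 alternatives from 0.00148 to 0.134). It also shares 35.7% of its exonic bases with the unproven gene model Gm43545 on the other strand. Parg, which degrades poly(ADP-ribose) chains, had 658 to 724 normalized counts in old and 626 to 649 in young libraries and did not pass (adjusted p = 0.291).

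Among the sirtuins, Sirt1 passed and the other 4 chosen by name did not. Sirt1, the nuclear deacetylase best known for acting on transcription factors and histones (ENSMUSG00000020063, chromosome 10, 63319005 to 63381704, minus strand), had 485, 449.6 and 481 normalized counts in old and 400.3, 382 and 380.3 in young libraries. All 3 old libraries lay above all 3 young ones. The means were 472 ± 19.5 and 387 ± 11.2 (SD, n = 3 each), a log2 difference of 0.28 ± 0.07 (SE; limma adjusted p = 0.0143). The call was lost without old replicate 1 (adjusted p = 0.0635) and without young replicate 2 (adjusted p = 0.0661), and over the 18 alternatives the adjusted p ran from 0.00635 to 0.0791, with a log2 difference from 0.26 to 0.34.

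Sequence before the RefSeq start of Sirt1 (63339035) is shown because Sirt1 was the only sirtuin that passed and because its window holds a motif that few promoters have. These are 235 bases from RefSeq on GRCm38.p6, chr10:63339051-63339285, minus strand, overlapping no exon annotated in GENCODE M21. The span of Sirt1 given above begins farther upstream, at 63381704, with a longer GENCODE transcript, so these bases lie in an intron of that transcript. Capitals mark the E-box CACGTG, which reads the same on both strands.
Sirt1: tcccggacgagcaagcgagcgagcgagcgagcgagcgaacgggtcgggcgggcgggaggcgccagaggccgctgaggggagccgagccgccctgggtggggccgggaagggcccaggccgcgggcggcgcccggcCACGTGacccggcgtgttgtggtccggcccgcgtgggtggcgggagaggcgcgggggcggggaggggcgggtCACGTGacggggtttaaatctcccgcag
The E-boxes begin 115 and 43 bases before the RefSeq start. Searched over the 250 bases before the start on both strands, CACGTG was in 6.02% of 32851 promoter windows and in 2 of the 9 genes of the 10 that had a window (Sirt1 and Parp1). The GC box GGGCGG was in 32.74% of all windows and in 8 of the 9, Cd38 being the exception; the Cd38 window lies within the first exon that GENCODE gives for Cd38, downstream of its start at 43868553, so it may not be the promoter of that transcript. The AP-1 letters TGANTCA and the TATA box TATAAA were in 6.75% and 12.37% of all windows and in 0 of the 9. CCAAT was in 33.85% and in Nmnat1, Sirt2 and Sirt3. None of these motifs contains another, and a match is a description of the sequence.

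Sirt2, the mainly cytosolic deacetylase (ENSMUSG00000015149, chromosome 7, 28766735 to 28788661), had 607, 598 and 619 normalized counts in old and 636, 558 and 581 in young libraries. The old values lay inside the young range. The log2 difference was 0.04, with a 95% interval from -0.12 to 0.21 (limma adjusted p = 0.688).

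Sirt7, a nucleolar sirtuin (ENSMUSG00000025138, chromosome 11, 120618372 to 120625240), had 495, 466 and 532 normalized counts in old and 465, 467 and 417 in young libraries. Its log2 difference was 0.15 (95% interval -0.04 to 0.33; limma adjusted p = 0.203). Sirt6, a chromatin-bound deacetylase known from telomere and glucose regulation (ENSMUSG00000034748, chromosome 10, 81621785 to 81627797), had 77.7, 76.9 and 87.6 against 84.5, 69.3 and 56.6 normalized counts, with a difference of 0.22 and a 95% interval from -0.17 to 0.60 (adjusted p = 0.353). For both genes the ages overlapped. Sirt7 shares 124 exonic bases with Mafg, and Sirt2 shares 42 with Nfkbib.

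Sirt3, the main mitochondrial deacetylase (ENSMUSG00000025486, chromosome 7, 140863666 to 140882309), had 51.4, 64.1 and 57.2 normalized counts in old and 64.4, 64.9 and 68.4 in young libraries. All old libraries were below all young ones, by a margin as small as 64.1 against 64.4. The log2 difference was -0.20, with a 95% interval from -0.54 to 0.14 (limma adjusted p = 0.338). Sirt3 shares exonic bases with Psmd13 (342 bases) and Ric8a (418 bases) on the other strand, whose mean normalized counts over the 6 libraries (1148 and 674) were far above the 61.7 of Sirt3, so its value is uncertain to that extent.

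With Sirt4 and Sirt5, the other mitochondrial sirtuins, the family had 7 tested genes, of which 1 was higher, 0 were lower and 6 did not pass (median 0.22; 14.3% called against 35.5%). Sirt4 had 39.3 to 56.2 normalized counts in old and 27.0 to 41.2 in young libraries (log2 difference 0.60, limma adjusted p = 0.0765). Sirt5 had 47.0 to 53.0 against 27.0 to 42.2 (0.53, adjusted p = 0.0775). Both passed under quantile normalization (0.0355 and 0.0348), and Sirt4 also without young replicate 1 (0.0444); over 17 alternatives the adjusted p ran from 0.0355 to 0.233 for Sirt4 and from 0.0348 to 0.221 for Sirt5.

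Over all NAD pathway lists together, 49 of 64 genes were tested and 16 passed (32.7%, against 35.5% of all tested genes). Of these, 12 were higher and 4 lower in old, whereas among all tested genes 17.9% were called higher and 17.6% lower. The median log2 difference of the 49 was 0.17 and that of all tested genes was 0.00. The 64 genes include the 6 channel genes described next, which gave 3 of the calls, 2 higher and 1 lower. The split by direction was not stable: with the replicate number as a block in the fit, 5 genes passed as higher and 4 as lower.

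Of 6 genes listed for channels that respond to the products of CD38, 4 were tested, 2 were higher in old, 1 was lower and 1, the lysosomal channel gene Tpcn2, did not pass (limma adjusted p = 0.128); the share called was 75%, against 35.5% of all genes. Trpm2, the cation channel opened by ADP-ribose, had 146, 127 and 185 normalized counts in old and 285, 327 and 271 in young libraries. No old library reached the lowest young one, and Trpm2 was 1.93-fold higher in young (log2 difference -0.96 ± 0.14, SE; limma adjusted p = 0.000781). Tpcn1, a channel of endosomes and lysosomes that responds to NAADP, was 1.30-fold higher in old (adjusted p = 0.00356). Ryr1, a ryanodine receptor, had 20.3 to 27.4 normalized counts in old and 7.04 to 11.8 in young libraries (log2 difference 1.21, adjusted p = 0.0187). Its call was lost without old replicate 2 (0.0827) and without young replicate 1 (0.0554), with a range over 17 alternatives from 0.00611 to 0.0827.

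Cd38 is often read as a gene of classically activated mouse macrophages, together with Fpr2 and Gpr18, and opposite to Egr2 and Myc. In these libraries Cd38 was lower in old while Fpr2, a formyl peptide receptor gene, had 877, 905 and 859.8 normalized counts in old against 378, 411.5 and 515 in young libraries and was 2.03-fold higher (limma adjusted p = 8.24e-05). Tnf, the tumour necrosis factor gene, was 1.37-fold (adjusted p = 0.00183) and Egr2, a transcription factor gene of alternative activation, 7.21-fold higher in old (adjusted p = 6.73e-08). Of the 8 genes of this list 6 were tested, 3 were higher in old, 0 were lower and 3 did not pass (median 0.49; 50% called, all higher in old, against 35.5% called and 17.9% called higher among all genes). Those that did not pass were Myc, Nos2 and Il1b (limma adjusted p = 0.285, 0.607 and 0.416). Gpr18, below the filter as was Il6, had 5, 13 and 5 reads in old and 2, 5 and 2 in young libraries. The list mixes genes of both activation states, so its counts give no direction of activation.

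Levels can be compared between genes only per length, here as normalized counts per kilobase of exon. The length taken was that of all annotated exons of a gene together, whether or not these cells use them. For Cd38 it was 3890 bases, against 3270 in the transcript whose coding stretch is shown above. The order between genes, and the size of the ratios given above, therefore depend in part on the annotation. In old libraries the order was Bst1 (1031 ± 71.2, SD, n = 3), Nampt (554 ± 49.4), Parp1 (242 ± 28.4), Sirt2 (121 ± 2.01), Sirt7 (96.7 ± 6.46), Sirt1 (88.5 ± 3.66), Cd38 (62.1 ± 1.6), Sirt6 (29.0 ± 2.15), Nmnat1 (22.4 ± 2.85) and Sirt3 (9.63 ± 1.07). Of neighbours in that order, Sirt7 and Sirt1 overlapped between libraries and the others did not. In young libraries Nampt (471 ± 63.8) and Bst1 (461 ± 51.7) overlapped at the top, and Cd38 (83.8 ± 9.18) stood between Sirt7 (87.3 ± 5.52) and Sirt1 (72.7 ± 2.10) and overlapped with both. Sirt6 and Nmnat1 also overlapped in young libraries. Cd38 thus moved from rank 6 in young to rank 7 in old libraries, below Sirt1, and Bst1 from rank 2 to rank 1.

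**Figure D4:**
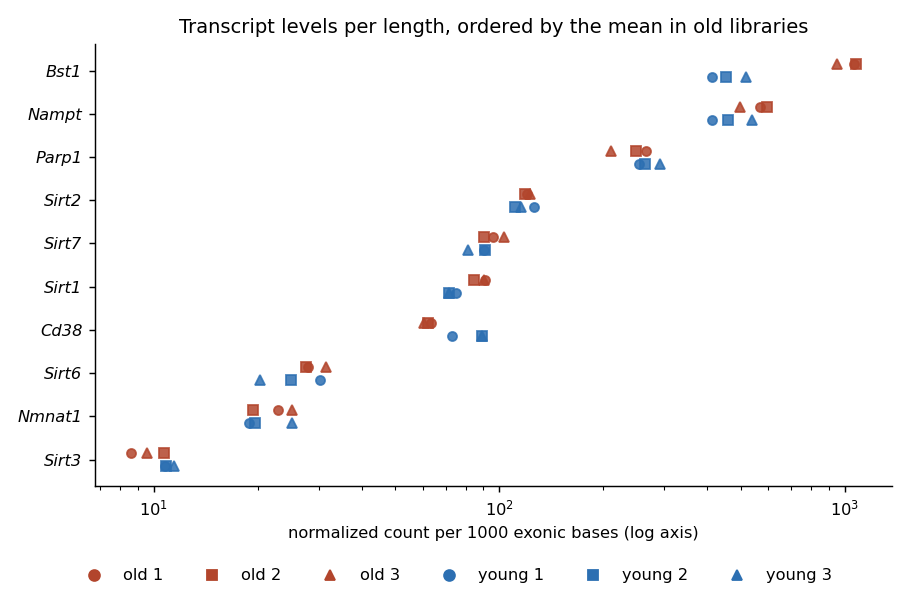
Normalized counts per kilobase of exon (log axis) of the 10 genes in each library, ordered by the mean in old libraries; red is old, blue is young, and the symbol gives the replicate number. Bst1 separated from Nampt in old libraries (1031 against 554) and not in young ones (461 against 471), and Sirt3 was the lowest in both.

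The genes whose pattern was most like that of Cd38, by the root mean square difference of centred log2 values over the 6 libraries among 10615 other named genes, were Strbp (0.03), an RNA-binding protein gene, Tmtc3 (0.03) and Ctcf (0.04), a chromatin insulator protein gene. Strbp had 109, 106 and 104 normalized counts in old and 129.8, 153 and 147 in young libraries. Like Cd38, it had its lowest young value in replicate 1 and all old values below all young ones, a likeness for which it was picked.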

How the data were processed

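RNA libraries had been prepared with a TruSeq kit, per the labels' protocols. The authors deposited 1 table of signal values, which are read counts scaled by one size factor for each library; DESeq2 and the build mm10 appear without versions in the submitters' processing notes. No aligner, read counter, annotation release or use of strand is given in the sources used here. Values were whole multiples of 1 step per library (100% of values in each, within 0.01 reads), so whole reads could be recovered. Symbols, positions and exonic lengths came from GENCODE M21 (19917 of 19973 identifiers matched). The test was limma 3.58.1 (trend on; R 4.3.3) on log2(normalized count + 1), for genes with a mean of at least 10 (11795; 8178 set aside), with Benjamini-Hochberg adjustment over all of them at 0.05, 2-sided; this scale understates changes of low genes. Fold values are ratios of means. The fit was tested on simulated counts first. Alternatives were 17 fixed ones, among them count tests on the recovered reads with edgeR 4.0.16 and DESeq2 1.42.0, with 1 added after seeing the data. Members and lists were chosen with earlier results of these data known. Named were the 10 members, up to 4 further passing genes per list by adjusted p (filled to 2 by mean level), and the 3 genes most like Cd38. Promoter windows are from RefSeq (GRCm38.p6). Only libraries of vehicle-treated cells were used.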

Additional observations from a re-analysis of the deposited data

How the results depend on the processing

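Of the 18 alternatives, none reversed the direction of a named gene. Calls over all genes numbered 4183, with edgeR on recovered reads 4324 and with DESeq2 3743; leaving out 1 library gave 2940 (without young replicate 2) to 5660 (without old replicate 3), and leaving out both libraries numbered 3 gave 6960. Of the 10 genes, 3 passed, 2 when old replicate 1 or young replicate 2 was left out, and 4 when either or both of the libraries numbered 3 were left out or each library was centred on its median; the fourth was Nampt. NAD pathway calls, 16, ran from 11 to 18 with 1 library left out. Under quantile normalization they were 22 of 49, while calls over all tested genes rose to 4526 of 11795. No pairing by replicate number was seen. Deviations from the age means of same-numbered libraries correlated at -0.38, -0.36 and -0.68, and no library correlated best with its own number. The deviations within an age are not independent, so these correlations cannot settle whether libraries of equal number share a preparation. With the replicate number as a block, 2643 genes, 9 NAD pathway genes and, of the 10, Cd38 and Bst1 passed, and Sirt1 had an adjusted p of 0.0791. Of those 9, 5 were higher in old (Bst1, Parp3, Tiparp, Parp8 and Tpcn1) and 4 lower (Cd38, Slc25a51, Parp4 and Trpm2). With no filter on low values, 17 of 56 NAD pathway genes passed, against 4221 of all 19973 genes. Among the 17 were Kmo and Kynu of the kynurenine route, which the filter otherwise leaves out, and Aox1 did not pass.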

Other observations

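Nnt, the mitochondrial transhydrogenase that passes electrons between NADH and NADP, was singled out after its values were seen. It had 3, 5 and 18 reads in old and 25, 16 and 24 in young libraries. Old replicates 1 and 2 were low and old replicate 3 lay within the young range. This entry shares 3339 exonic bases (47.45%) with another same-strand Nnt entry of the annotation that is not in the deposited table. Its value is uncertain to that extent. The log2 difference of Nnt was -1.29 and did not pass (limma adjusted p = 0.139). Without old replicate 3 it was -2.05 (adjusted p = 0.00242) and without both libraries numbered 3 it was -2.01 (adjusted p = 0.000934), with a range over 17 alternatives from 0.000934 to 0.377.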
